A study of Mus musculus with 4 samples.

Results

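Total RNA of the mouse hypothalamus was compared between mice given concentrated salt and mice given vehicle. The RNA came from the whole tissue homogenate, the input of an experiment that also immunoprecipitated ribosomes, and only the input arrays were used. They were chosen by their labels as salt input and control input, 4 of the 8 arrays in the study, 2 from the salt group and 2 from the control group. All mice were C57Bl/6J animals aged 12 weeks, kept in a 12 h light and dark cycle and killed at about circadian time 6. The salt group received 325 uL of 2 M NaCl and the control group phosphate-buffered saline. Water was then withheld from both groups, and the hypothalamus was taken 2 h after the injection. RNA was amplified and biotin-labelled for Illumina BeadArrays, in which a bead-bound probe reports the level of 1 transcript as a brightness. The arrays are called salt 1, salt 2, control 1 and control 2 after their labels. How many animals went into each is not given there, and every p-value below rests on the variation among these 4 samples, which may be technical.

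A rise in blood osmolality is sensed by neurons of the anterior wall of the third ventricle and by the magnocellular neurons of the paraventricular and supraoptic nuclei, which release vasopressin and oxytocin from the posterior pituitary. Firing of such neurons switches on immediate early genes, among them the transcription factors Fos, Fosb and Egr1, within minutes and without new protein synthesis. Salt loading is also a stressor that raises circulating glucocorticoid, which acts through its nuclear receptor on genes such as Sgk1 and Fkbp5 in neurons, glia and vessels. Cells exposed to hypertonic fluid further use the transcription factor NFAT5 to induce transporters and enzymes for organic osmolytes.

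Levels are given as log2 of the background-corrected, quantile-normalized brightness. A difference is the mean of the 2 salt arrays minus the mean of the 2 control arrays on that scale, so 1 unit is a 2-fold change, and its error is the standard error (SE) of a limma fit with 2 arrays per group. Median brightness ranged from 143.3 to 159.4 on the 4 arrays, and each detected 12259 to 12705 of 25697 probes at a detection p under 0.01. A probe was tested when at least 2 arrays detected it, which left 12720 probes of 9245 genes, each gene being described by its brightest probe. Of 16 hypothalamic factors and peptides on the array 10 were tested. The lineage factors Nkx2-1 and Sim1 and the peptides Hcrt, Pmch, Agrp, Avp and Oxt were detected on all 4 arrays, but Lhx1 on neither salt array. Otp, Six3, Six6, Rax, Nr5a1 and Pomc were below the filter. None of 8 pituitary genes on the array, among them Gh, Prl and again Pomc, passed the filter. Markers of striatum passed as well (8 of 9 on the array). The 2 salt arrays differed from each other more than the 2 control arrays did. The SD over probes was 0.39 for salt 1 minus salt 2 and 0.26 for control 1 minus control 2. For 1 salt array minus 1 control array it ran from 0.26 to 0.35. The difference between the group means had an SD of 0.19, which averaging 2 arrays a side lowers by itself.

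At 2 h after salt, total hypothalamic RNA as a whole was little altered: 99.0% of tested probes differed by less than 1.5-fold between the group means, and 17 probes were more than 2-fold higher and 1 more than 2-fold lower after salt. Immediate early genes made up much of the upper end, led by Fosb, Fos, Gem, Egr2, Klf4, Maff and Nr4a1, together with the chemokine gene Cxcl1, the kinase gene Sgk1 and the antiproliferative gene Btg2. The linker histone gene H1f4 was the lowest. Only 1 probe passed an adjusted p of 0.05 in limma with Benjamini-Hochberg adjustment over all 12720 probes (0.00786% of probes), that of Fosb, and 0 probes passed as lower. Without adjustment, 143 probes were higher and 140 lower at p under 0.05 (283 in all, 2.22% of probes), and 41 higher and 25 lower at p under 0.01. If no probe differed, the threshold of 0.05 would by itself pass a larger share than 2.22%. Both salt arrays lay beyond both control arrays at 3145 probes, 24.7% of those tested. With 2 arrays a side such separation is common where nothing differs, so it is weak evidence alone. A single probe had to reach an unadjusted p of 3.93e-06 to pass, so with 2 arrays a side a difference that did not pass is not shown to be absent.

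**Figure D1:**
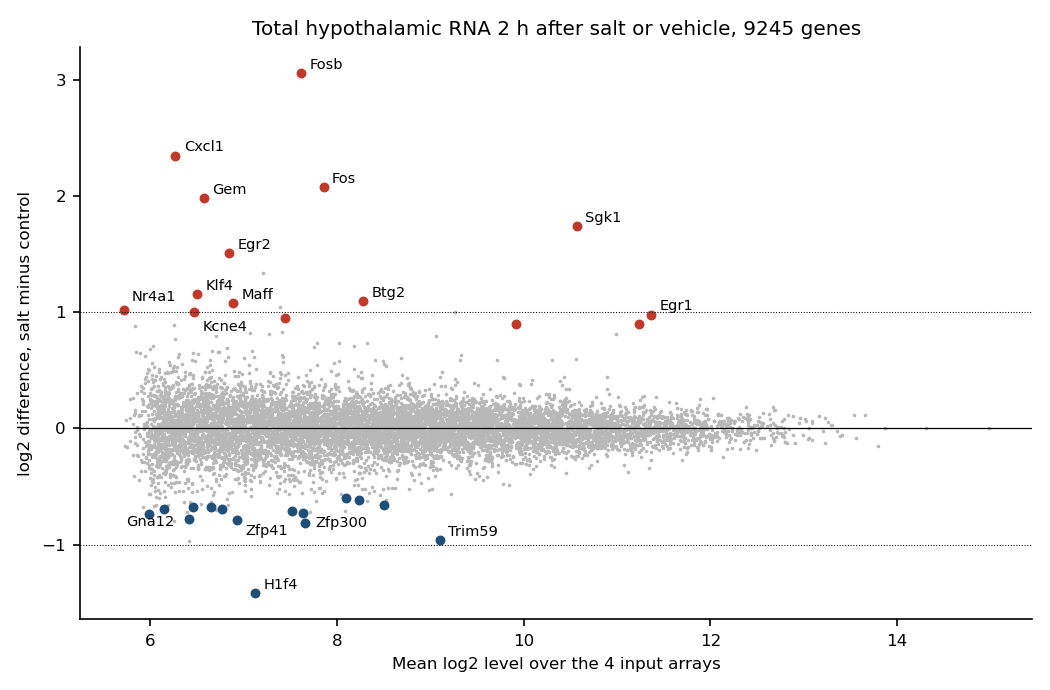
Each point is 1 of 9245 genes, with its mean log2 level over the 4 input arrays on the horizontal axis and its log2 difference, salt minus control, on the vertical axis. Red and blue points are the 15 genes named as higher and the 15 named as lower, dotted lines mark a 2-fold difference, and Fosb stands highest at 3.06 and H1f4 lowest at -1.42.

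Fosb, a partner of Jun proteins in the AP-1 transcription factor, rose. Its log2 level was 9.03 on salt 1 and 9.26 on salt 2, against 6.25 on control 1 and 5.93 on control 2, where 1 of the 2 control arrays detected it. Both salt arrays were far above both control arrays, and the difference was 3.06 ± 0.18 (SE), or 8.33-fold, with an adjusted p of 0.0217 in limma. With any 1 array left out the difference stayed between 2.90 and 3.22 but no longer passed: the adjusted p was 0.118 without salt 1, 0.293 without salt 2, 0.0553 without control 1 and 0.113 without control 2.

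Fos, the other main AP-1 subunit of activated neurons, read 8.91 and 8.88 on the salt arrays and 7.30 and 6.33 on the control arrays. The salt arrays nearly coincided and lay above both control arrays, of which control 2 was well below control 1, and the difference of 2.08 ± 0.31 (4.22-fold) had an adjusted p of 0.683. Maff, a small Maf protein that lacks an activation domain, read 7.64 and 7.21 after salt and 6.33 and 6.37 in controls, a difference of 1.08 ± 0.19 with groups that did not overlap. Of the AP-1 class, 11 genes were on the array and 6 were tested, with Junb, Jund, Atf3, Batf and Batf3 below the filter. Of the 6, 1 was called higher (0.0108% of all genes were), 3 had an unadjusted p under 0.05 as higher and 0 as lower (1.15% and 1.11% of all genes), and the median difference was 0.69 against 0.00 over all genes. That median was 0.39 without background correction, 0.31 over probes detected on all 4 arrays and 0.095 with no filter on dim probes, which changes the members counted. Jun, which pairs with Fos proteins, differed by 0.09 ± 0.18 and Jdp2, a repressor of AP-1 sites, by -0.09, both with overlapping groups.

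Of 20 other immediate early transcription factors on the array, 11 were tested, with a median of 0.17. At an unadjusted p under 0.05, 5 of them were higher and 0 lower (1.15% and 1.11% of all genes). Of these 5, Nr4a1 passed the filter through its salt arrays alone, so the filter favoured its direction. Egr2, a zinc finger factor of the Egr family, read 7.89 and 7.31 on the salt arrays and 6.36 and 5.81 on the control arrays, a difference of 1.51 ± 0.27. Egr1, a widely used marker of neuronal activity from the same family, read 12.03 and 11.69 after salt and 10.88 and 10.87 in controls, a difference of 0.98 ± 0.18. For both genes the lower salt array was above the higher control array. Klf4, a Krüppel-like factor that restrains proliferation, differed by 1.15 ± 0.25, and Nr4a1, an orphan nuclear receptor, read 6.22 and 6.23 after salt and was detected on neither control array, which gives at least a 1.11-fold difference. The fifth was Crem, whose short product ICER represses cAMP-responsive genes, at 0.55 ± 0.16 (named, like the other genes with an unadjusted p of 0.01 or more, after its values were seen). None of these 5 passed over all probes (adjusted p 0.992 to 1 for Egr2, Egr1, Klf4 and Nr4a1). Nr4a2 at 0.17, Srf at 0.04, Ier3 at -0.04, Ier5 at -0.15, Klf6 at -0.16 and Klf10 at -0.21 made up the rest, while Npas4, Egr3, Egr4, Nr4a3, Ier2, Csrnp1, Klf2, Myc and Nab2 were below the filter. The median of the 11 moved with single arrays, to 0.098 without salt 1, 0.26 without salt 2 and 0.30 without control 2, and was 0.04 over probes detected on all 4 arrays and 0.63 with all 8 arrays normalized and fitted.

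The promoters of Fos, Fosb and Egr2 are shown to compare the motifs found close to the starts of these early genes. Sequence further upstream was not searched, so a motif not marked here is not shown to be absent from the gene. Each sequence is the 250 bases before the gene's start in RefSeq (build GRCm38.p6), 5′ to 3′ on the gene's strand, and capitals mark the searched motifs. They are the palindromic cAMP response element TGACGTCA, its shorter form TGACGT, which every TGACGTCA also holds, and the CArG box to which serum response factor binds, all read on both strands. Fos lies at chr12:85473640-85473889, Fosb at chr7:19310046-19310295 on the minus strand and Egr2 at chr10:67537619-67537868, at 1 of 5 listed starts, taken because it held most motifs. A gene counts as holding a motif where any of its listed starts does.
Fos: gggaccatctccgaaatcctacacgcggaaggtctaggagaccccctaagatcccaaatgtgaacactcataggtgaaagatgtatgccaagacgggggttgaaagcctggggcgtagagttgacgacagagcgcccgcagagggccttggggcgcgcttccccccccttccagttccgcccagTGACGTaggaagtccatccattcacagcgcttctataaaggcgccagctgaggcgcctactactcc
Fosb: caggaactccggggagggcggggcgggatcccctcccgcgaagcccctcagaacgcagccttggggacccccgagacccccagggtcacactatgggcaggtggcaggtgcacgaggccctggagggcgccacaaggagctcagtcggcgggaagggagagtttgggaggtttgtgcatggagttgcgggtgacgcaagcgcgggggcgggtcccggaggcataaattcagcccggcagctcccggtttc
Egr2: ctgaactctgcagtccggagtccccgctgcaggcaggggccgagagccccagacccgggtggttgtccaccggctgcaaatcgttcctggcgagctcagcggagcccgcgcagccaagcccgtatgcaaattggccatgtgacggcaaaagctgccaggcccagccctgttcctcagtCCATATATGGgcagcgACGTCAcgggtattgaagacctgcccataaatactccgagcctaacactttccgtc
In Fos the TGACGT begins 66 bases before the start. In Egr2 a CArG box begins 72 bases and the shorter element 56 bases before the start. Fosb held none of the 3 motifs in this window.

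Some early genes whose products act at synapses and on channels were also at the upper end. Gem, a small GTPase that lowers voltage-gated calcium channel activity, read 7.74 on salt 1 and 7.40 on salt 2, against 5.73 on control 1 and 5.44 on control 2. Neither control array detected it, so the fold was at least 2.82, with an adjusted p of 0.146. Kcne4, an accessory subunit that inhibits voltage-gated potassium channels, had means of 6.97 after salt and 5.97 in controls, a 2.00-fold difference with groups that did not overlap and an adjusted p of 0.683. Of 26 activity-related effector genes on the array 17 were tested, and 14 lay above 0 (49.8% of all genes did), with a median of 0.22. At an unadjusted p under 0.05, 3 were higher, Gem, Ccn2 (0.64) and Nptx2 (0.56), and 0 lower (1.15% and 1.11% of all genes). Gem passed the filter through its salt arrays alone, so the filter favoured its direction. Arc, a regulator of glutamate receptor turnover and a standard marker of activity, read 7.29 and 6.97 after salt and 6.84 and 6.98 in controls, with overlapping groups and a difference of 0.22 ± 0.18. Bdnf differed by 0.14, Homer1 by -0.02 and Scg2 by 0.04. Without control 1 the median of the 17 was 0.13, with 11 above 0, and without salt 2 it was 0.15.

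Genes that damp signalling were also among the higher ones. Btg2, which promotes removal of poly(A) tails from mRNA, read 8.69 and 8.96 on the salt arrays and 7.74 and 7.73 on the control arrays, a difference of 1.09 ± 0.17 (2.13-fold). Dusp1, a phosphatase that inactivates MAP kinases, read 10.30 and 10.44 after salt and 9.55 and 9.39 in controls, a difference of 0.90 ± 0.16. In both genes the salt arrays were clearly apart from the control arrays, and the adjusted p values were 0.683 and 0.992. Zfp36, which encodes tristetraprolin, a destabiliser of AU-rich mRNAs, differed by 0.95 ± 0.21, and Rgs2, which shortens signalling of Gq proteins, by 0.74 ± 0.15. Of 21 feedback inhibitors on the array 15 were tested, and 7 had an unadjusted p under 0.05 as higher and 0 as lower (1.15% and 1.11% of all genes). In 9 both salt arrays lay above both controls (13.5% of all genes were higher in that way). The remaining 3 of the 7 were Gadd45g (0.59), Errfi1 (0.59) and Dusp6 (0.44), and the median over the 15 was 0.29. The other members, Dusp4, Dusp14, Spry4, Rgs4, Gadd45a and Zfp36l1, lay between -0.09 and -0.01, apart from Spry2 at 0.29 and Btg1 at 0.06.

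The promoters of Btg2 (chr1:134079156-134079405, minus strand) and Dusp1 (chr17:26508473-26508722, minus strand) are given in the same form, for their cAMP response elements.
Btg2: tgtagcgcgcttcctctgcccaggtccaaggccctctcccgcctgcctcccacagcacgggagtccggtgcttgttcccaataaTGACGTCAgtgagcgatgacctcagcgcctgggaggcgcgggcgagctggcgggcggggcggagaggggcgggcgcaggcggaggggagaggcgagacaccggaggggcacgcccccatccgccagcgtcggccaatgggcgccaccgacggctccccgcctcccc
Dusp1: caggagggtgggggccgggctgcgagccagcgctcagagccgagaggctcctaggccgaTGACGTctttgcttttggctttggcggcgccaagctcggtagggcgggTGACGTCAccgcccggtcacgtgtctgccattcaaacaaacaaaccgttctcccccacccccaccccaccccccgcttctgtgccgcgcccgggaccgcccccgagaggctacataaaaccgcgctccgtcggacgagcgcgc
The whole palindrome TGACGTCA begins 166 bases before the start of Btg2 and 143 bases before that of Dusp1, which holds a further TGACGT at 191 bases. Of the 15 genes named as higher, 13 had a promoter sequence, and 3 of these (Btg2, Dusp1 and Maff) held TGACGTCA, as did 2 of 13 genes named as lower (Lekr1 and Mterf1a). Among all tested genes with a sequence the share was 229 of 7118 (3.22%), and 1.77% over all genes of the RefSeq set. The shorter TGACGT was in 6 of the 13 higher genes (Btg2, Cxcl1, Dusp1, Egr2, Fos and Maff), 3 of the 13 lower genes and 12.3% of all tested genes (7.29% of the RefSeq set). A CArG box was in Egr2 and Zfp36 among the higher genes and in 1.42% of all tested genes (1.62% of the RefSeq set), and the AP-1 motif TGANTCA was in 0 of the 13 in either direction against 5.03% of tested genes (7.82% of the RefSeq set). Such matches describe the letters of these windows and not binding.

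**Figure D2:**
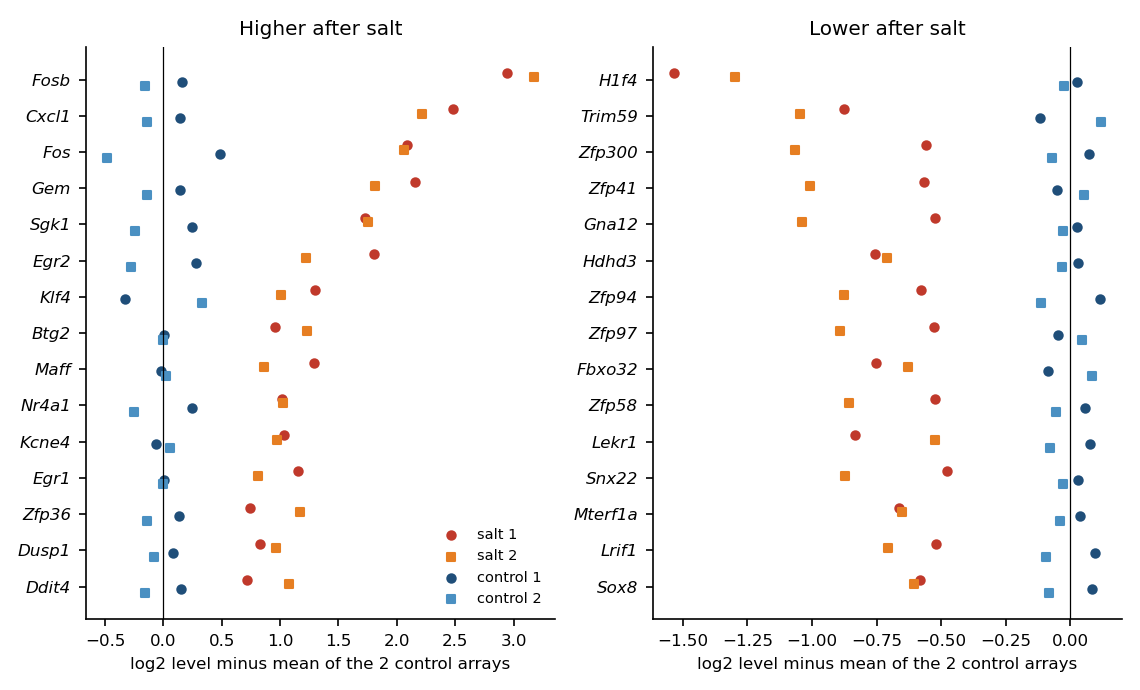
Each row is 1 gene, with the log2 level on each of the 4 input arrays minus the mean of the 2 control arrays on the horizontal axis, for the 15 genes named as higher (left) and the 15 named as lower (right). Salt arrays are red and orange, control arrays dark and light blue, and in all 30 genes, which were chosen for this, the salt arrays lie apart from the control arrays.

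Glucocorticoid-regulated genes lay mostly above 0. Of 24 on the array 17 were tested, 15 lay above 0 (49.8% of all genes did) and 13 had both salt arrays above both control arrays (13.5% of all genes). At an unadjusted p under 0.05, 10 were higher and 0 lower (1.15% and 1.11% of all genes). The median difference was 0.49, and between 0.45 and 0.56 with any 1 array left out, with 15 or 16 of 17 above 0 each time. None passed over all probes at an adjusted p of 0.05. The list is known from many tissues and was not chosen for hypothalamus. It shares Dusp1 and Errfi1 with the feedback inhibitors, Sgk1 with the osmoprotective genes, and Per1 with the clock genes and the activity-related effectors. Gjb6 also counts as an astrocyte marker and Mt1 and Mt2 as metallothionein genes, so the lists are not independent.

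Sgk1, a kinase that raises the activity of ion channels and transporters and is induced by glucocorticoids, mineralocorticoids and hypertonicity, was the highest of them. It read 11.43 on salt 1 and 11.45 on salt 2, against 9.95 on control 1 and 9.46 on control 2. The salt arrays coincided and lay well above both controls, a difference of 1.74 ± 0.20 (3.34-fold) with an adjusted p of 0.248. Ddit4, an inhibitor of the growth kinase mTORC1, read 11.50 and 11.86 after salt and 10.94 and 10.63 in controls, a difference of 0.89 ± 0.20. Mertk, a receptor tyrosine kinase for the uptake of dying cells, differed by 0.61 ± 0.16, and Arrdc2, of the arrestin family, by 0.57 ± 0.15. In all 4 genes the groups did not overlap.

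The other members below an unadjusted p of 0.05 were Dusp1, given above, Cdkn1a, Pdk4, Errfi1, Fkbp5 and Sult1a1. Cdkn1a, the cell cycle inhibitor p21, read 7.26 and 8.48 on the salt arrays and 6.70 and 6.37 on the control arrays, a difference of 1.33 ± 0.38, and a second, dimmer probe that neither control array detected differed by 2.09. The salt arrays differed from each other there by more than the lower one differed from the controls. Fkbp5, a co-chaperone that lowers the affinity of the glucocorticoid receptor, read 7.58 and 7.48 after salt and 7.03 and 7.06 in controls, a difference of 0.49 ± 0.15. Pdk4, which holds back pyruvate oxidation, differed by 0.59 and Sult1a1, a sulfotransferase, by 0.41. Tsc22d3, which encodes GILZ and is itself a glucocorticoid target, differed by -0.03 ± 0.18 with overlapping groups, Tsc22d1 by -0.24, and the metallothionein genes Mt1 and Mt2 by 0.08 and 0.00.

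The region before the start of Sgk1 (chr10:21993640-21993889, build GRCm38.p6, at 1 of 6 listed starts, taken in the same way) is shown for a full palindrome of the glucocorticoid response element, searched on both strands and given in capitals.
Sgk1: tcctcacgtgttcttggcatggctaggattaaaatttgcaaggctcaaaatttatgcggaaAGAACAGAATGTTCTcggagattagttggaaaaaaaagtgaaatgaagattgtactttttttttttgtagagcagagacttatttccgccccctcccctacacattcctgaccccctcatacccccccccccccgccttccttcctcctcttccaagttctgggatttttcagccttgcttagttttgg
The palindrome begins 189 bases before that start. Of 13 genes named as higher with a sequence it was found in Sgk1 alone, in 0 of 13 named as lower, and in 3 of 7118 tested genes (0.0421%, Car14, Mpv17 and Sgk1) or 0.074% of the RefSeq set.

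Of 23 osmoprotective and cell volume genes on the array, 18 were tested, and 13 lay above 0 (49.8% of all genes did). At an unadjusted p under 0.05, 2 were higher, Slc38a2 and Sgk1, which is also in the glucocorticoid list, and 0 lower (1.15% and 1.11% of all genes). Slc38a2, the sodium-coupled neutral amino acid transporter SNAT2, which hypertonic cells use to take up amino acids as osmolytes, read 9.59 and 9.65 on the salt arrays and 9.02 and 9.04 on the control arrays. Both salt arrays were above both controls, by 0.59 ± 0.15, and 2 further probes of the gene differed by 1.06 and 0.53. Nfat5 itself read 8.74 and 8.97 after salt and 8.44 and 8.52 in controls, a difference of 0.37 ± 0.16 that did not overlap, with 0.34 and 0.03 at its other probes. Among targets of NFAT5, the myo-inositol transporter gene Slc5a3 differed by 0.39 ± 0.23, the taurine transporter gene Slc6a6 by 0.18 and Akr1b3, the aldose reductase that makes sorbitol, by -0.06. The heat shock gene Hspa1a, which hypertonicity induces in kidney, differed by -0.19. The median over the 18 genes was 0.17.

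**Figure D3:**
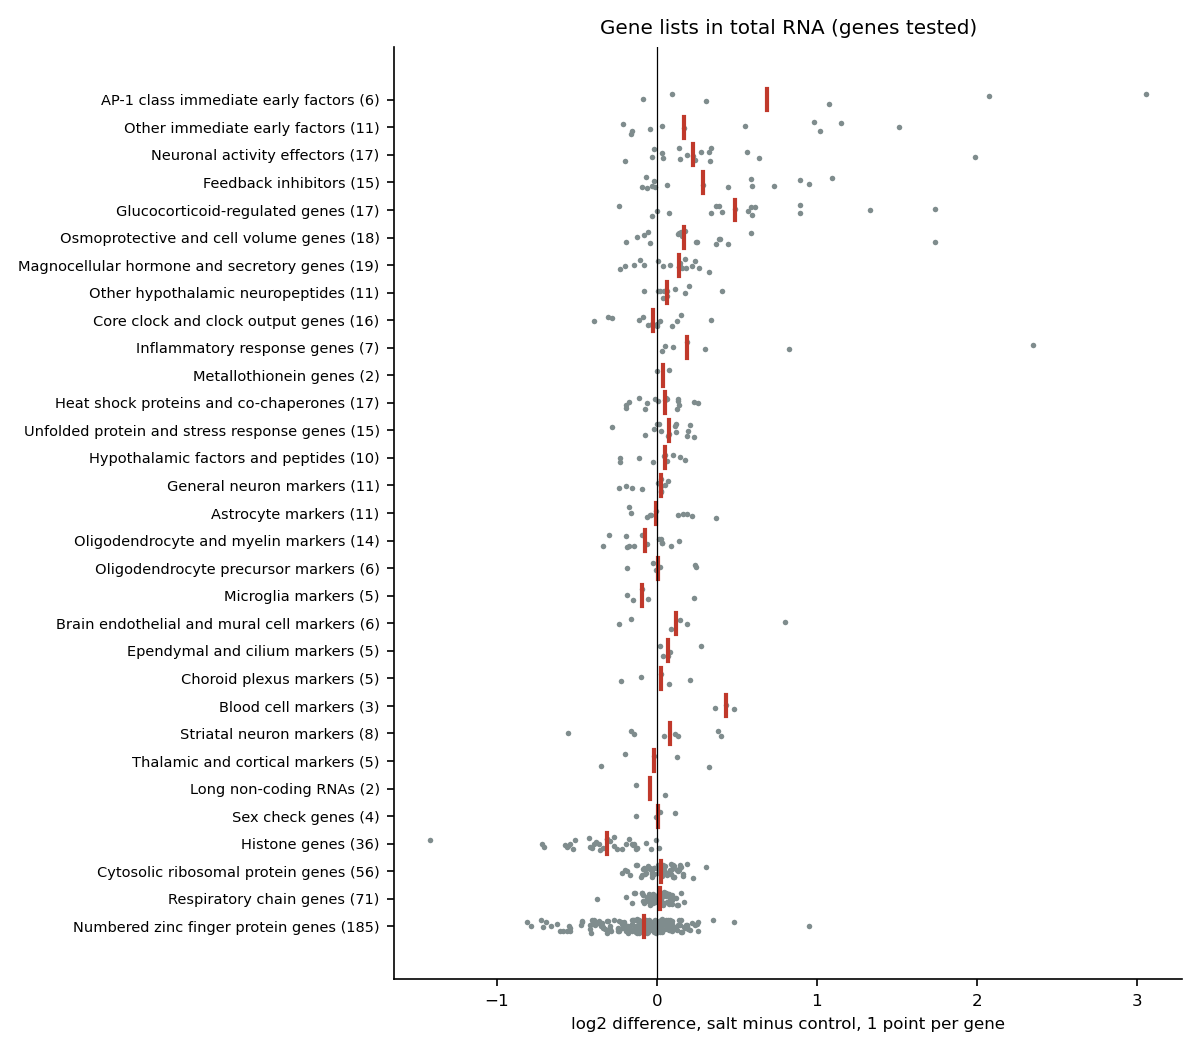
Each point is 1 tested gene, placed by its log2 difference, salt minus control, in rows for the gene lists with the number tested in parentheses, and red bars mark the medians. The medians run from 0.69 for the AP-1 class and 0.49 for glucocorticoid-regulated genes down to -0.08 for numbered zinc finger genes, -0.09 for microglia markers and -0.31 for histone genes.

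The chemokine gene Cxcl1, whose product attracts neutrophils, was also at the upper end. It read 7.57 on salt 1 and 7.31 on salt 2, against 5.23 on control 1 and 4.96 on control 2, and neither control array detected it. The fold was at least 2.58, the measured difference 2.35 ± 0.18 and the adjusted p 0.0542. Its promoter (chr5:90890995-90891244, build GRCm38.p6) is shown for an NF-kappaB motif, searched on both strands, which begins 71 bases before the start, and a TGACGT on the other strand (ACGTCA as printed) at 195 bases, both in capitals.
Cxcl1: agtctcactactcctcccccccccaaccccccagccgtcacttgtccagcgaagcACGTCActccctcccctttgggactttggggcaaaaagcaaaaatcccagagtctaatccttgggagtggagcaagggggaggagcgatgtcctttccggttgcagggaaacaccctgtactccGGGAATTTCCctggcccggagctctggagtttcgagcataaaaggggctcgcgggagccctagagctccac
This exact sequence was in 1 of the 13 higher genes, 0 of 13 lower genes, 6 of 7118 tested genes (0.0843%) and 0.104% of the RefSeq set. Only the form marked in Cxcl1 was searched, and no other form of the NF-kappaB motif. These are therefore not shares of genes with any such motif, and they do not set Cxcl1 apart from other genes. Of 30 inflammatory response genes on the array 7 were tested, and 7 lay above 0 (49.8% of all genes did). Cxcl1 passed the filter through its salt arrays alone, so the filter favoured its place above 0. Without salt 1, 6 of the 7 lay above 0, and without salt 2 or without control 1, 5 did. Besides Cxcl1 only Nfkbiz, which encodes a nuclear regulator of NF-kappaB, had an unadjusted p under 0.05 (1.15% of all genes were higher at that threshold). Nfkbiz read 7.94 and 7.71 after salt and 6.97 and 7.02 in controls, a difference of 0.83 ± 0.16 with groups apart. The other 5 were Vcam1 at 0.30, Il1r1 at 0.19, Icam1 at 0.10, Stat3 at 0.05 and Ifitm3 at 0.03, and 23 genes, with Il1b, Il6, Tnf, Ccl2 and Cxcl10 among them, were below the filter. Among endothelial and mural cell genes (6 of 20 on the array tested), Mfsd2a, the lipid transporter of the blood-brain barrier, read 7.31 and 6.89 after salt and 6.43 and 6.17 in controls, a difference of 0.80 ± 0.20. The other 5, Rgs5, Egfl7, Esam, Acta2 and Cldn5, lay between -0.24 and 0.19.

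The genes of the hormones released in response to salt had differences within the spread between arrays. Avp, which encodes vasopressin, read 8.20 on salt 1 and 9.39 on salt 2, against 8.69 on control 1 and 8.62 on control 2. The control arrays lay between the salt arrays, and the difference was 0.14 ± 0.36. Oxt, which encodes oxytocin, read 8.56 and 9.13 after salt and 9.35 and 8.80 in controls, also overlapping, with a difference of -0.23 ± 0.27. The sign of both turned on single arrays: Avp differed by -0.45 without salt 2, and Oxt by 0.06 without salt 1 and 0.05 without control 1.

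Crh, the releasing hormone of the stress axis, read 6.30 and 6.42 after salt and 5.97 and 6.30 in controls, where 1 of 2 arrays detected it, a difference of 0.22 ± 0.18. Pdyn, which encodes the dynorphin precursor stored with vasopressin, read 11.06 and 10.79 after salt and 10.59 and 10.91 in controls, with overlapping groups and a difference of 0.18 ± 0.19. Of 19 tested magnocellular hormone and secretory genes (22 on the array), 14 lay above 0 (49.8% of all genes did). In limma 0 had an unadjusted p under 0.05 in either direction, which is near the shares of all genes (1.15% higher and 1.11% lower). Their differences ran from -0.23 to 0.33 (Vgf), the median was 0.14, and without control 1 it was 0.02, with 11 of 19 above 0. Of 21 other hypothalamic neuropeptides on the array 11 were tested, and 0 had an unadjusted p under 0.05, also near those shares. Ghrh, the growth hormone releasing peptide, was highest at 0.41 ± 0.17, Hcrt, Vip, Agrp, Sst and Npy lay between 0.01 and 0.06, and Nts was lowest at -0.08. Of these 11, 10 lay above 0 (49.8% of all genes did), but 4 did without control 1, when the median was -0.10.

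**Figure D4:**
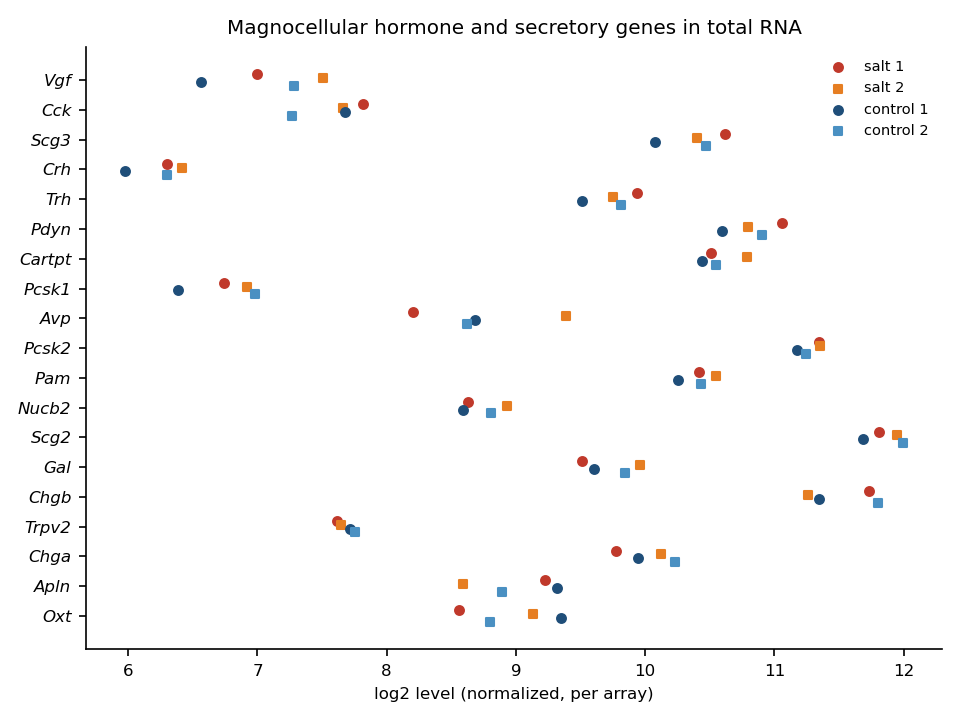
Each row is 1 of the 19 tested magnocellular hormone and secretory genes, with its normalized log2 level on each of the 4 input arrays. Salt arrays (red and orange) and control arrays (dark and light blue) intermingle in most rows, and the salt arrays of Avp lie at 8.20 and 9.39 on either side of its controls.

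At the lower end stood H1f4, which encodes a linker histone that compacts nucleosomes. It read 6.30 on salt 1 and 6.53 on salt 2, against 7.86 on control 1 and 7.81 on control 2. The groups were well apart, a difference of -1.42 ± 0.16 or 2.67-fold lower, with an adjusted p of 0.248. Other histone genes lay to the same side: of 65 on the array 36 were tested, and 35 of 36 were below 0 (50.2% of all genes were). In 15 both salt arrays were below both control arrays (11.9% of all genes were lower in that way). At an unadjusted p under 0.05, 8 were lower and 0 higher (1.11% and 1.15% of all genes). Beside H1f4 the 8 were H4c17 (-0.72), H2ac22 (-0.56), H2ac23 (-0.56), H2ac10 (-0.51), H2bc21 (-0.39), H1f2 (-0.38) and H2aj, which neither salt array detected and which was at least 1.42-fold lower, and none passed over all probes. H2aj passed the filter through its control arrays alone, so the filter favoured its direction. The median over the 36 genes was -0.31, and H2az1, a replication-independent variant, was highest at 0.01.

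The size of the histone difference depended on the array. The median log2 level of the 36 genes was 7.84 on salt 1, 8.46 on salt 2, 8.78 on control 1 and 8.47 on control 2, so salt 1 was low and salt 2 close to control 2. The median difference was -0.20 without salt 1 (27 of 36 below 0), -0.48 without salt 2 (32 of 36), -0.21 without control 1 and -0.44 without control 2 (33 of 36 each). H4c12, for instance, read 7.23 on salt 1, 8.24 on salt 2, 8.65 on control 1 and 8.23 on control 2, so that its -0.71 ± 0.34 rested on 1 array. Many histone genes are near-identical copies, 23 of the 36 lie on chromosome 13 and 7 on chromosome 3, and a probe may read several of them, so these are not 36 separate measurements. Replication-dependent histone mRNA ends without a poly(A) tail and is made mainly in dividing cells. In whole tissue, fewer cells of a type and less RNA per cell cannot be told apart.

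The 15 genes named as lower held 5 of the numbered zinc finger genes, most of which encode DNA-binding proteins with rows of zinc fingers. Of all 9245 genes tested, 185 were numbered zinc finger genes. Zfp300 read 7.50 and 6.99 on the salt arrays and 8.13 and 7.99 on the control arrays, a difference of -0.81 ± 0.21. Zfp94 read 7.42 and 7.12 after salt and 8.11 and 7.89 in controls, a difference of -0.73 ± 0.18. Zfp97 differed by -0.71 ± 0.18 and by -0.85 at its other probe, Zfp58 by -0.69, and Zfp41 by -0.79 but by -0.22 at its other probe. In each of these the salt arrays were below the control arrays.

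Of 253 numbered zinc finger genes on the array, 185 were tested, 126 of them below 0 (50.2% of all genes were) and 59 above. At an unadjusted p under 0.05, 20 were lower (1.11% of all genes) and 2 higher (1.15%), Zfp36, whose product binds RNA, and Zfp954. The 20 lower genes include Zfp300, Zfp94, Zfp97, Zfp58 and Zfp41, which were named for being low. Zfp799 and Zfp384 among the lower passed the filter through control arrays alone, and Zfp954 through salt arrays alone. In 53 both salt arrays were below both controls (11.9% of all genes), and in 16 above (13.5%). The median was -0.08 against 0.00 over all genes, and it lay between -0.09 and -0.06 with any 1 array left out, with 112 to 124 of 185 below 0. No member passed over all probes at an adjusted p of 0.05.

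**Figure D5:**
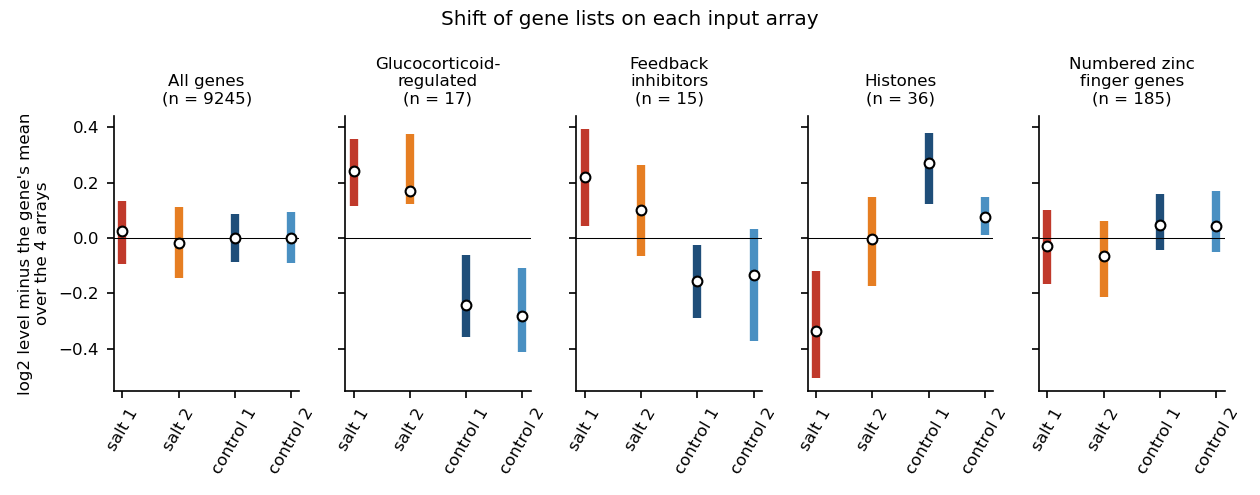
For all 9245 genes and 4 gene lists, the circle is the median and the bar the interquartile range, over genes, of the log2 level on that array minus the gene's mean over the 4 input arrays. Glucocorticoid-regulated genes and feedback inhibitors lie higher on both salt arrays, histones are lowest on salt 1, and numbered zinc finger genes lie slightly lower on both salt arrays than on the control arrays.

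Of the remaining genes named as lower, Trim59, of the tripartite motif family of ubiquitin ligases, read 8.70 and 8.53 on the salt arrays and 9.46 and 9.70 on the control arrays. Its groups were well apart, with a difference of -0.96 ± 0.17 (1.95-fold lower) and an adjusted p of 0.992. Mterf1a, which encodes a mitochondrial transcription termination factor, read 8.17 and 8.19 after salt and 8.88 and 8.80 in controls, a difference of -0.66 ± 0.15 with -0.71 at its other probe. Lrif1, a nuclear protein that binds heterochromatin factors, differed by -0.61 at its brightest probe and by -0.41, -0.57 and -0.82 at 3 others. Sox8, a transcription factor of oligodendrocyte and other glial lineages, read 7.81 and 7.78 after salt and 8.47 and 8.31 in controls, and Gna12, a G protein subunit, differed by -0.78, Lekr1 by -0.68 and Snx22, a sorting nexin, by -0.67. Fbxo32, the muscle atrophy ubiquitin ligase subunit atrogin-1, and Hdhd3 were detected on neither salt array, which gives at least 1.38-fold and 1.25-fold lower levels. The adjusted p values of all of these except Trim59 were 1.

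Other stress pathways had no member at an unadjusted p under 0.05 in limma. Of all genes 1.15% were higher and 1.11% lower at that threshold, so lists of this size would hold few or none. Of 17 tested heat shock and co-chaperone genes the median was 0.05, from Hspa1a at -0.19 to Bag3 at 0.26, and of 15 unfolded protein and integrated stress response genes it was 0.08 (0.02 without control 1), with Atf4 at 0.19 and Ddit3 at 0.03. Of 16 clock genes 6 lay above 0, with a median of -0.02 (-0.13 without salt 1, 0.03 without salt 2): Per1, a clock gene that activity and glucocorticoids also induce, was highest at 0.34 ± 0.19 with groups that did not overlap, and Dbp, a clock output factor, was lowest at -0.40 ± 0.17, with 8.68 and 8.69 after salt and 9.22 and 8.94 in controls. The 56 ribosomal protein genes had a median of 0.03 and a range of -0.22 to 0.30, and Rps6, whose phosphorylated protein is the target of the antibody in the full study, differed by -0.10 ± 0.19. The 71 respiratory chain genes had a median of 0.02, and the reference genes Actb and Gapdh differed by -0.14 ± 0.18 and 0.00 ± 0.16. The noncoding RNAs Gas5 and Snhg11 differed by 0.05 and -0.13.

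Cell type markers give the makeup of the tissue beside these results. No neuron, astrocyte, oligodendrocyte, precursor, microglia, ependymal or choroid plexus marker had an unadjusted p under 0.05 in limma. Of all genes 1.15% were higher and 1.11% lower at that threshold, so few or no markers would be at those shares. The median differences were 0.02 over 11 neuron genes, -0.01 over 11 astrocyte genes, -0.08 over 14 oligodendrocyte genes and 0.01 over 6 precursor genes. They were -0.09 over 5 microglia genes, 0.07 over 5 ependymal genes and 0.02 over 5 choroid plexus genes. Single arrays moved these medians: astrocyte genes were at 0.20 without salt 1 (9 of 11 above 0) and 0.17 without control 1, and microglia genes at 0.19 without salt 2 and -0.22 without salt 1. Neuron genes were at -0.08 without control 1 and 0.08 without control 2, oligodendrocyte genes at -0.17 without salt 2, precursor genes at 0.09 without salt 2, ependymal genes at 0.12 without salt 2 or control 1, and choroid plexus genes at 0.14 without salt 1. The summed level of the oligodendrocyte markers on the linear scale was 24910 and 27064 on the salt arrays and 26491 and 25756 on the control arrays, and that of the neuron markers 16920 and 16724 against 16134 and 17291, overlapping in both. Ttr and Folr1, the defining genes of choroid plexus, and the microglia genes Tmem119 and Csf1r were below the filter. Of the blood cell genes, the 3 tested haemoglobin genes lay above 0 (49.8% of all genes did), with a median of 0.43. Of these 0 had an unadjusted p under 0.05 in limma, and the groups of Hba-a1 overlapped. The summed level of the 3 genes was 1509.9 on salt 1, 1375 on salt 2, 1342 on control 1 and 850.3 on control 2. Control 2 was the lowest by a wide margin, and the median was 0.20 without it. With all input arrays kept, the median was as low as 0.028 under other processing. Neutrophil genes S100a8 and S100a9 and the leukocyte gene Ptprc were below the filter, and the part of blood RNA in the level of Cxcl1 was not tested. Striatal markers had a median of 0.08 over 8 genes, with Ppp1r1b, which encodes DARPP-32, lowest at -0.55 ± 0.25 and Scn4b highest at 0.40, and thalamic and cortical markers a median of -0.02 over 5. Genes of the Y chromosome were detected on all 4 arrays, with a median difference of 0.01, and Xist was below the filter.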

How the data were processed

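Total RNA of 4 hypothalamus samples (2 salt, 2 control) was measured on Illumina BeadArrays. The authors deposited linear probe intensity values with a detection p-value for each probe and array, per the file headers; GenomeStudio is named without a version in the submitters' processing notes. Undetected probes had median intensities of 104.1 to 112.2, so no background had been subtracted. The deposited intensity columns of the immunoprecipitated RNA, and the ratio and log2 columns that the authors deposited, were not used, apart from an alternative that normalized all 8 arrays. Amplification precedes labelling, so levels are relative within a probe.

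Intensities of the 4 input arrays were background-corrected with limma 3.58.1 in R 4.3.3 (negative controls inferred from detection p-values, offset 16), quantile-normalized and put on the log2 scale. A probe was tested if 2 or more arrays detected it at p under 0.01, as for 12720 of 25697. The 2 groups were compared with lmFit and eBayes (2 residual and 4.39 prior degrees of freedom), two-sided, with Benjamini-Hochberg adjustment over all probes and a threshold of 0.05. The fit was tested on simulated data. A probe undetected on both arrays of a group got a bound, the brighter mean over the higher of the lowest detected signal and its own value on each array. Such a probe passed the filter through the other group alone, so the filter favoured its direction in the list counts. Of the probes, 20736 carried a current symbol, 3841 an older one that was updated, and 1120 a name left as it stood. The number of arrays limits the precision.

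Named genes were up to 15 each way by size, called or with an unadjusted p under 0.01, with groups that did not overlap and detection on both arrays of the higher group, up to 6 such members per list, and fixed genes. The genes, lists and rule were chosen with earlier results of these data known, and lists were described by counts and medians, without a test. Promoter sequences are from RefSeq (GRCm38.p6), with an entry for 26 of 30 genes named as higher or lower. Alternatives were other background corrections, offsets, scalings and filters, a trended robust fit, other choices of probe, a replicate block and leaving out each array.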

Additional observations from a re-analysis of the deposited data

How the results depend on the processing

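Against 1 probe called by limma in the fit reported, 1 was called without background correction, with normexp without negative controls, with an offset of 50 and with all 8 arrays normalized and the input fitted alone. There were 2 with all 8 arrays normalized and fitted, 2 with 1 probe per gene, 2 with a gene's probes averaged, 3 with a trended robust fit and 4 with median scaling. With no filter on dim probes 0 passed (795 at an unadjusted p under 0.05), and with probes detected on all 4 input arrays 0 passed (246), since the probe of Fosb is not among them. Probes more than 2-fold higher numbered 17, but 6 without background correction (0 lower), 9 with the offset of 50, 10 with normexp and 8 among probes detected on all 4 arrays. Leaving out 1 array gave 0 calls each time, 122 to 1311 probes at an unadjusted p under 0.05, 16 to 62 more than 2-fold higher and 3 to 31 more than 2-fold lower, highest without salt 1. The replicate block gave 2 calls (Fosb and Cxcl1) and 187 probes at an unadjusted p under 0.05. The numbers pair only 2 samples a side and same-numbered samples deviated apart (correlation -0.24), so they are not shown to pair the samples. A crossed pairing, added after seeing the data, gave 7 calls and 458 probes at an unadjusted p under 0.05. Over 46 named genes, 703 of 724 values under alternatives kept direction and side of the threshold, 5 lost the call, 9 gained it (for Cxcl1, Gem or Sgk1) and 7 turned sign. Of the 46 only Fosb was called in the fit reported, so for the rest keeping the side meant only staying uncalled. The sign turned when 1 array was left out. Avp ran from -0.45 (without salt 2) to 0.74, Oxt from -0.51 to 0.056 (without salt 1; 0.048 without control 1), and Rps6 from -0.30 to 0.094 (without salt 2). Actb ran from -0.31 to 0.026 (without salt 1) and Gapdh from -0.086 (without control 2; -0.058 without salt 2) to 0.092. The lost calls were those of Fosb with 1 array left out, and without the filter on dim probes (adjusted p 0.260, with the difference still 3.06; more probes were tested and the unadjusted p rose from 1.71e-06 to 1.01e-05). The cause of the other differences was not tested. Probes near background, among them those of Cxcl1, Gem and Nr4a1 in controls, give bounds only.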

Other observations

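In total RNA, 58 genes were detected on both salt arrays and on neither control array, and 36 on both control arrays and on neither salt array. Among the first were, besides Cxcl1, Gem and Nr4a1, the polysialyltransferase gene St8sia2, at least 1.15-fold higher, and the phosphoinositide kinase gene Pik3c2a, at least 1.20-fold higher. These 2 genes were named after their values were seen, and neither passed over all probes at an adjusted p of 0.05 in limma.

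Some large differences rested on 1 array. Taf15, which encodes an RNA-binding protein, read 8.98 on salt 2 and between 5.84 and 6.27 on the other arrays. Limk1, a kinase gene of the actin cytoskeleton, read 10.93 on salt 2 and between 8.36 and 9.17 on the others. Pspc1, a paraspeckle protein gene, read 8.66 on salt 2 and 6.06 on control 2, with 7.18 and 7.68 on salt 1 and control 1. These were named after their values were seen; the probes were more than 2-fold higher by their means, and their groups overlapped.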
